A study of Equus caballus with 20 samples.

Results

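The genes that copy DNA were examined in epithelial cells of the mare's oviduct, as 46 genes taken by name, with no threshold on their values. They cover 10 roles, from origin recognition to chromatin assembly. Of the 46, 44 were listed under their symbols among the 26740 features of the table, and all 44 passed the filter on low values, as did 14692 features in all. CDC45, a helicase subunit, and TYMS, thymidylate synthase, were not found under those symbols and are not analysed here. All animals were Warmblood mares, sampled 4 days after ovulation at the junction of ampulla and isthmus, the part of the oviduct where eggs are fertilized. The groups, of 5 biological replicates each per the series design, were pregnant ipsilateral (PI, the oviduct on the ovulation side), pregnant contralateral (PC, the opposite oviduct), cyclic ipsilateral (CI) and cyclic contralateral (CC). The study compared pregnant with cyclic mares on each side, and the 2 sides within each status. The labels tie no oviduct to a named mare and give no batch or date.

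DNA copying starts where the origin recognition complex binds. CDC6 and CDT1 then load the ring-shaped MCM helicase, which GINS, CDC45 and MCM10 switch on in S phase. Primase and the polymerases synthesize the new strands behind it, held by the PCNA clamp, while RPA coats exposed single strands and FEN1 and LIG1 join the short fragments of the lagging strand. Ribonucleotide reductase, TYMS and TK1 supply nucleotides, and the CAF-1 complex packs the copies onto histones. Many of these genes are switched on by E2F transcription factors as a cell enters S phase, whereas clamp loader, origin recognition and polymerase subunits also serve DNA repair or are made in resting cells. In the oviduct, multiciliated cells have left the cell cycle, and in mice the secretory cells divide and can give rise to ciliated ones.

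Values are the deposited counts after TMM scaling, a correction for library composition, and are called normalized counts. Reads per library ran from 2795168 in PI1 to 10126484 in CI2, and 1 read was worth 2.34 normalized counts in PI1 and 0.585 in PC4. The level that 3 reads stand for lay between 1.75 and 7.03 normalized counts. A single feature took 14.4% of the reads in PI1, 27.8% in PI4 and 15.4% in CI3. The labelled epithelium was checked by its markers: EPCAM, an epithelial adhesion molecule, was between 1115 and 2413 normalized counts over the 20 libraries, while 19 of 20 multiciliated cell markers passed the filter. OVGP1, the oviduct glycoprotein of secretory cells, reached only 15.4 at most and was listed at 0 in CC2. Of 10 secretory cell markers, however, 8 passed the filter. PAX8 was between 1410 and 2491 normalized counts and CLU between 6319 and 28750, while CRISP3 was listed at 0 in all 20 libraries. 2 libraries stand apart in the replication genes or in the mitotic genes that go with them. PC4 was high, and CC1 was low mainly in mitotic genes, so the counts and the largest differences between PC and CC are also given without them.

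None of the 44 replication genes passed the test in any comparison. The contralateral comparison had the most genes higher: 34 of 44 were higher and 10 lower in PC than in CC, with a median log2 difference of 0.25, where 7611 of all 14692 features were higher and their median was 0.0092. In the ipsilateral oviduct 23 were higher and 21 lower in PI than in CI, with a median of 0.0074 (all features −0.011). Between oviducts of pregnant mares 8 were higher and 36 lower in PI than in PC, with a median of −0.18 (all features −0.030). Between oviducts of cyclic mares 32 were higher and 12 lower in CI than in CC, with a median of 0.076 (all features 0.0050). In bulk RNA, fewer cells of a type and less RNA per cell cannot be told apart.

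The test was limma on log2 of the value plus a pseudocount of 0.5 CPM (reads scaled to a common total, equal here to 3.03 normalized counts), fitted over all 20 libraries and adjusted over all 14692 features by Benjamini-Hochberg. Each difference below is on that scale with its standard error, which understates the change of genes with few reads. The share of all features called at an adjusted p under 0.05 was 0% in each comparison (0 of 14692), and the smallest adjusted p of a replication gene was 0.999 in PI against CI and in PI against PC, 0.9998 in PC against CC and 1.0 in the other comparisons. On reads recovered from the table edgeR also called 0 of the 44 in each comparison. DESeq2 called 0 of the 44 in each, and 6 of all features in PC against CC. At an unadjusted p under 0.05, limma had 3 replication genes higher and 0 lower in PC against CC, where 2.75% of all features were higher and 1.8% lower. The 3 were ORC1, CDT1 and PRIM1. edgeR and DESeq2 each had 5 higher there, adding RRM2 and MCM3, where edgeR had 3.33% and DESeq2 3.57% of all features higher. The other comparisons had 0 replication genes at that level, against 3.5% of all features in PI against CI, 0.762% in PI against PC, 0.286% in CI against CC and 0.32% in the interaction. Groups that do not overlap were found for 0 of the 44 in PI against CI (all features 0.592%), PC against CC (0.585%), PI against PC (0.136%) and CI against CC (0.0681%). The fit used no pairing of libraries. Its p-values therefore measure the spread between these samples, and not that of differences between same-numbered libraries.

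**Figure D1:**
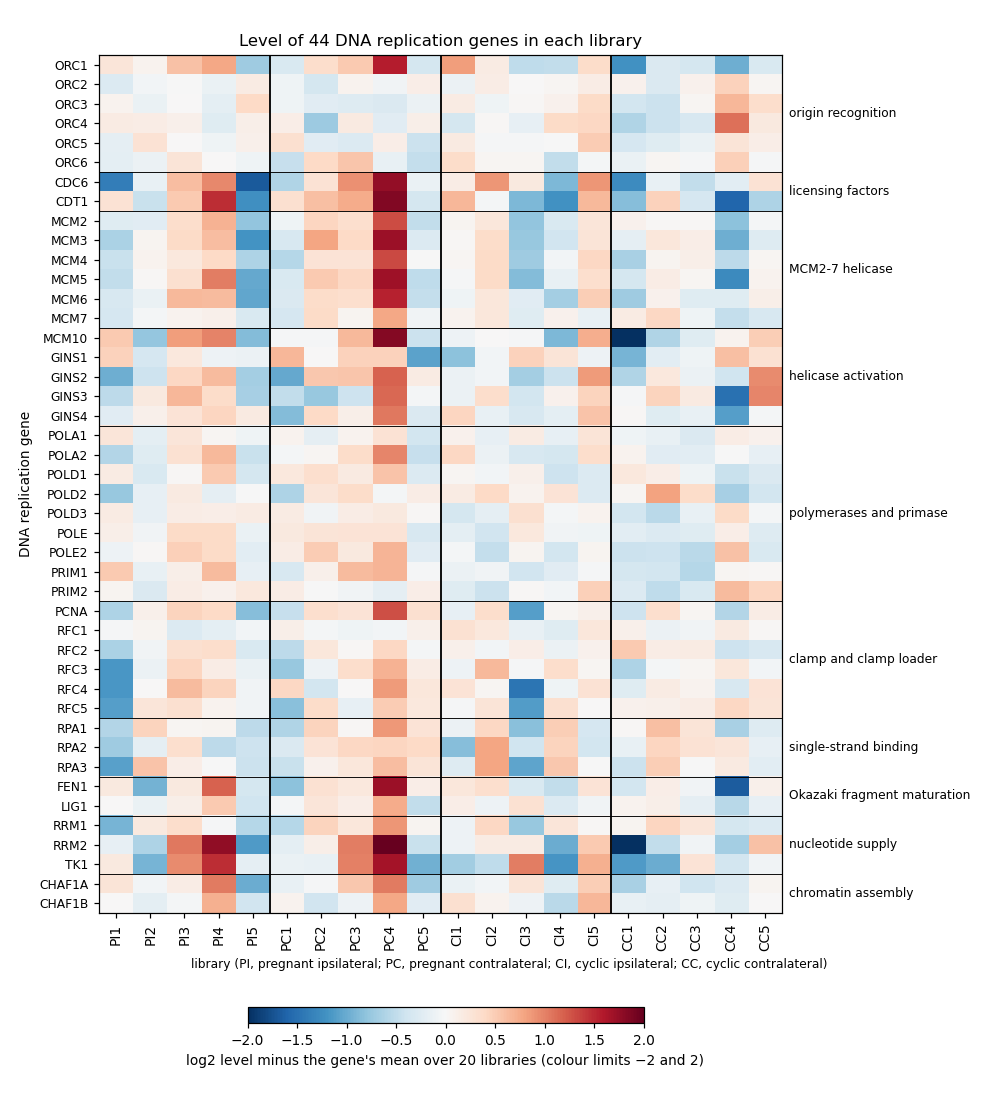
Each row is 1 of the 44 replication genes, grouped by role, and each column 1 of the 20 libraries. Colour is the log2 level minus the gene's mean over the 20 libraries, with colours capped at −2 and 2. PC4 is the column with the strongest high colours, the highest of 20 libraries for 30 genes, while the origin recognition subunits other than ORC1 stay pale in it.

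Among single libraries PC4 stood out. It held the highest value of 20 libraries for 30 of the 44 genes (68.2%), whereas it was highest for 12.1% of all features. The median deviation of the 44 genes from their own means over the 20 libraries was 0.77 in PC4 on the log2 scale. In the other pregnant contralateral libraries it was −0.24 in PC1, 0.24 in PC2, 0.25 in PC3 and −0.12 in PC5. In PI1 to PI5 it was −0.21, −0.11, 0.29, 0.39 and −0.34. The cyclic mares spanned a narrower range, with −0.020, 0.058, −0.16, −0.16 and 0.26 in CI1 to CI5, and −0.30, −0.0051, −0.076, −0.26 and 0.014 in CC1 to CC5. Of the 30 genes highest in PC4, the next highest library was PI4 for 13 and PI3 for 3. PC4 was sequenced deeply, with 10015464 reads. CI2 and CC2 had 10126484 and 9849146 reads and stood at 0.058 and −0.0051. The part of depth in the pattern was not tested. PC4 was also the highest library for 8 of 11 leukocyte markers and 24 of 27 mitotic genes, whose part in the pattern was not tested.

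Over 2 times the median of the other PC libraries was reached in PC4 by 16 genes. They include RRM2 at 5.34 times, MCM10 at 4.00, GINS3 at 3.66, TK1 at 3.61, CDC6 at 3.36 and ORC1 at 3.12. The 14 genes not highest in PC4 were ORC2 to ORC6, RFC1, RFC2, POLD2, POLD3, POLE, PRIM2, RPA2, RPA3 and GINS1. CC1 was lowest of the 20 libraries for MCM10, RRM2 and ORC1, 6.82% of the 44 genes, as it was for 5.98% of all features. CC4 was lowest for 9 genes (20.5%) and highest for 5 (11.4%), namely ORC2, ORC3, ORC4, POLD3 and PRIM2, where it was lowest for 14.0% and highest for 12.1% of all features.

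Origin recognition was the role in which most genes did not share the direction of the rest in PC against CC: 1 of 6 was higher, ORC1, and the median was −0.090. ORC1, the subunit whose level follows the cell cycle, had the smallest p of the 44 genes in that comparison. ORC1 had 23.4, 20.4, 30.6, 35.2 and 10.6 normalized counts in PI1 to PI5, and 15.1, 25.5, 29.1, 63.1 and 14.4 in PC1 to PC5. ORC1 levels were 36.7, 22.1, 12.6, 12.8 and 25.7 in CI1 to CI5, and 6.59, 15.3, 14.4, 8.35 and 14.9 in CC1 to CC5. PC2, PC3 and PC4 lay above every CC library, and PC1 and PC5 lay within the CC range. The log2 difference was 0.99 ± 0.38 for PC minus CC (limma, unadjusted p = 0.0159, adjusted p = 0.9998) and 0.68 ± 0.35 without PC4. It was 0.70 ± 0.38 for CI minus CC and 0.12 ± 0.38 for PI minus CI.

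ORC2 to ORC6, the other subunits of the complex, were not highest in PC4. ORC4 was lowest in PC2 and highest in CC4. ORC4 had 326, 322, 314, 247 and 315 normalized counts in PI1 to PI5, and 321, 175, 331, 248 and 317 in PC1 to PC5. ORC4 levels were 229, 295, 259, 382 and 389 in CI1 to CI5, and 191, 215, 232, 626 and 334 in CC1 to CC5. Apart from CC4, the libraries were between 175 and 389 normalized counts, and all 4 groups overlapped. Differences of ORC4 were −0.090 ± 0.26 for PC minus CC, −0.0047 ± 0.26 for PI minus CI, 0.16 ± 0.26 for PI minus PC and 0.074 ± 0.26 for CI minus CC. For PC minus CC, ORC2 differed by −0.14 ± 0.14, ORC3 by −0.25 ± 0.18, ORC5 by −0.035 ± 0.18 and ORC6 by −0.090 ± 0.23, none of which passed. ORC3 was the lowest of the 44 genes in this comparison.

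The licensing factors CDC6 and CDT1, which load the helicase onto origins, were both higher in PC than in CC and both lower in PI than in PC, without passing. CDT1 had 32.8, 18.5, 39.04, 78.8 and 9.45 normalized counts in PI1 to PI5, and 33.4, 41.5, 45.8, 103 and 19.95 in PC1 to PC5. CDT1 levels were 43.5, 25.6, 12.6, 9.60 and 42.9 in CI1 to CI5, and 13.2, 37.2, 20.2, 6.68 and 16.1 in CC1 to CC5. PC4 and PI4 were the highest libraries, while PC1 and PC5 lay within the CC range, and PC2 and PC3 lay just above it. The PC minus CC difference was 1.22 ± 0.51 (limma, unadjusted p = 0.0257, adjusted p = 0.9998), or 0.91 ± 0.51 without PC4. CDC6 is the ATPase that works with CDT1. CDC6 had 9.37, 26.3, 46.7, 60.4 and 7.09 normalized counts in PI1 to PI5, and 18.3, 36.8, 58.3, 106 and 26.6 in PC1 to PC5. CDC6 levels were 32.8, 56.6, 34.2, 14.4 and 56.8 in CI1 to CI5, and 10.5, 26.2, 20.2, 25.05 and 36.8 in CC1 to CC5. PI1 and PI5 were the lowest libraries and PC4 the highest, and PC1, PC5 and PC2 lay within or at the edge of the CC range. CDC6 differed by 0.81 ± 0.51 for PC minus CC, −0.57 ± 0.51 for PI minus CI, −0.77 ± 0.51 for PI minus PC and 0.60 ± 0.51 for CI minus CC. Its PC minus CC difference was 0.48 ± 0.51 without PC4, 0.58 ± 0.54 without CC1 and 0.26 ± 0.53 without both. Its interaction, the pregnancy difference on the ipsilateral side minus that on the contralateral side, was −1.38 ± 0.73, the one with the smallest p of the 44 (limma, unadjusted p = 0.0721).

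All 6 subunits of the MCM2-7 helicase, the motor that unwinds the double strand, were higher in PC than in CC, with differences from 0.22 for MCM7 to 0.67 for MCM3 and a median of 0.47. All 6 were lower in PI than in PC, with a median of −0.34, and 3 of 6 were higher in PI than in CI, with a median of −0.024. MCM2 had 223, 225, 337, 426 and 150.01 normalized counts in PI1 to PI5, and 248, 353, 333, 655 and 186 in PC1 to PC5. MCM2 levels were 271, 307, 151, 212 and 309.7 in CI1 to CI5, and 278, 267, 268, 147 and 256 in CC1 to CC5. MCM2, a subunit that also carries histones, was highest in PC4 and PI4 and lowest in CC4. MCM3 had 145, 234, 296, 349 and 96.9 normalized counts in PI1 to PI5, and 181, 392, 299, 746 and 187 in PC1 to PC5. MCM3 levels were 231, 294, 133, 172 and 271 in CI1 to CI5, and 200.3, 266, 248, 114 and 189.6 in CC1 to CC5. MCM3 was highest in PC4, followed by PC2, and PC1 and PC5 lay within the CC range. MCM5 had 122, 177, 217, 356 and 83.9 normalized counts in PI1 to PI5, and 139.95, 249.8, 232, 568 and 121 in PC1 to PC5. MCM5 levels were 171, 227, 93.7, 156 and 219 in CI1 to CI5, and 136, 193, 178, 70.1 and 183 in CC1 to CC5. MCM5 was again highest in PC4 and PI4 and lowest in CC4, and PC1 and PC5 lay within the CC range. For PC minus CC, MCM2 differed by 0.45 ± 0.31, MCM3 by 0.67 ± 0.38 and MCM5 by 0.63 ± 0.40, none of which passed. Without PC4 the 3 differences were 0.19 ± 0.29, 0.36 ± 0.35 and 0.30 ± 0.37. MCM3 had one of the smallest p values in PI minus PC, at −0.62 ± 0.38 (limma, unadjusted p = 0.116, adjusted p = 0.999).

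The other helicase subunits behaved alike in PC4. MCM4, which had 661 normalized counts there, had between 158 and 351 in the other 19 libraries. MCM6 had 829 in PC4, and between 137 and 447 elsewhere. MCM7 had 950.4 in PC4, and between 397 and 736 elsewhere. For PC minus CC, MCM4 differed by 0.45 ± 0.29, MCM6 by 0.50 ± 0.35 and MCM7 by 0.22 ± 0.19.

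Of the 5 measured genes that switch the helicase on, 4 were higher in PC than in CC, with a median of 0.28. MCM10, a scaffold for the starting fork, varied most in this role. MCM10 had 32.8, 11.7, 41.6, 46.97 and 10.6 normalized counts in PI1 to PI5, and 21.5, 21.7, 36.4, 86.5 and 15.5 in PC1 to PC5. MCM10 levels were 20.3, 22.1, 21.6, 10.4 and 38.6 in CI1 to CI5, and 2.64, 13.4, 18.2, 23.4 and 32.2 in CC1 to CC5. CC1, with 2 reads, was the lowest library and PC4 the highest, and the other PC libraries lay within or just above the span of CC2 to CC5. The PC minus CC difference of 0.89 ± 0.51 was 0.53 ± 0.49 without PC4, 0.47 ± 0.47 without CC1 and 0.11 ± 0.44 without both. The GINS complex, the collar that holds the helicase to the polymerase, had few reads. GINS2 had 2.34, 4.86, 11.03, 13.4 and 3.54 normalized counts in PI1 to PI5, and 2.15, 12.3, 12.5, 21.04 and 8.87 in PC1 to PC5. GINS2 levels were 6.76, 7.15, 3.60, 4.80 and 16.1 in CI1 to CI5, and 3.95, 9.15, 6.72, 5.01 and 17.2 in CC1 to CC5. GINS2 rested on 1 to 36 reads per library, with 1 read in PI1, 2 in PC1 and 36 in PC4. GINS4 had 11.7, 15.6, 17.8, 20.1 and 16.5 normalized counts in PI1 to PI5, and 6.46, 19.8, 15.6, 32.7 and 11.1 in PC1 to PC5. GINS4 levels were 20.3, 12.5, 10.8, 12.0004 and 22.5 in CI1 to CI5, and 14.5, 11.6, 12.5, 5.01 and 13.8 in CC1 to CC5. GINS4 was highest in PC4 and lowest in CC4, and PC1 and PC5 lay within the CC range. For PC minus CC, GINS2 differed by 0.28 ± 0.43 and GINS4 by 0.38 ± 0.32, GINS1 by 0.17 ± 0.33 and GINS3 by −0.13 ± 0.42. GINS3 was at −0.44 ± 0.40 without PC4, and GINS4 had one of the smallest p values in CI minus CC, at 0.37 ± 0.32 (limma, unadjusted p = 0.266, adjusted p = 1.0).

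**Figure D2:**
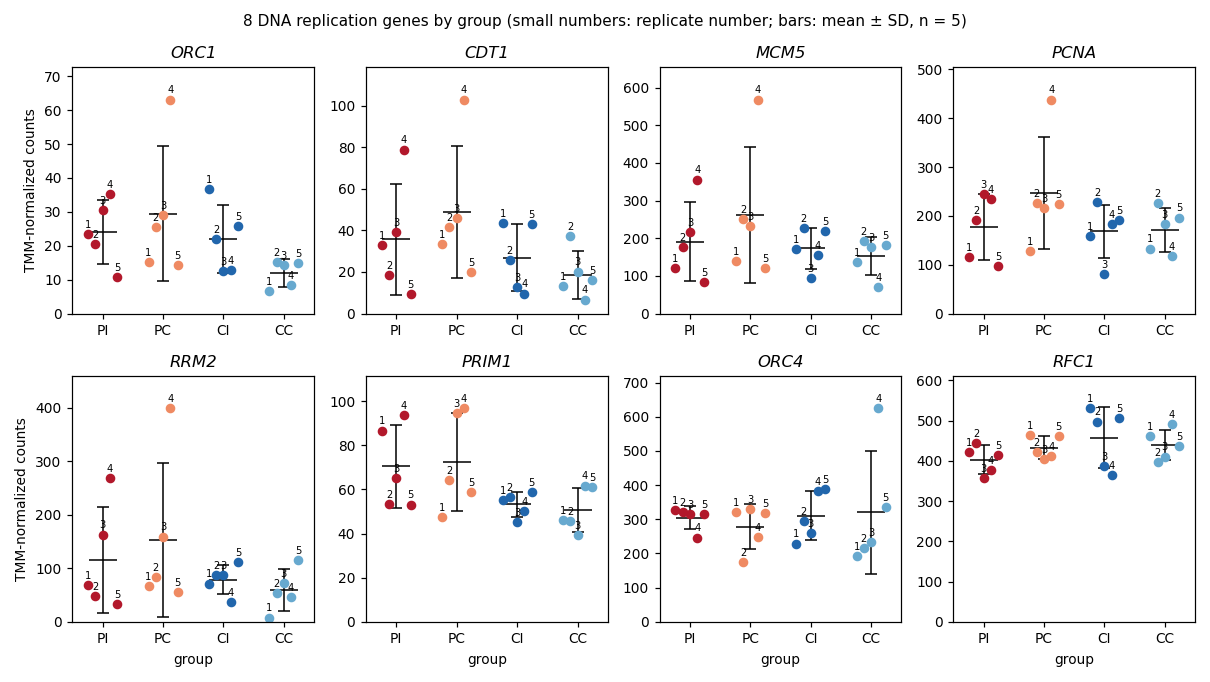
Normalized counts of 8 replication genes in each library, by group, with the replicate number over each point and bars for the mean and SD of 5 libraries. PC4 is the highest point for ORC1, CDT1, MCM5, PCNA, RRM2 and PRIM1, ORC4 is highest in CC4 at 626, and RFC1 stays between 356 and 532 in all 20 libraries.

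Among the polymerases and primase, 8 of 9 genes were higher in PC than in CC, with a median of 0.28, and 7 of 9 were higher in PI than in CI, with a median of 0.12. PRIM1, the catalytic primase subunit that lays the starting primers, had the smallest p of the 44 genes in PI against CI. PRIM1 had 86.7, 53.5, 65.3, 93.9 and 53.2 normalized counts in PI1 to PI5, and 47.4, 64.1, 94.7, 97.03 and 58.8 in PC1 to PC5. PRIM1 levels were 55.04, 56.6, 45.02, 50.4 and 58.9 in CI1 to CI5, and 46.1, 45.8, 39.3, 61.8 and 60.9 in CC1 to CC5. PI1, PI3, PI4, PC2, PC3 and PC4 were above every cyclic library, and the remaining 4 pregnant libraries lay among the cyclic ones. The differences were 0.46 ± 0.21 for PC minus CC, 0.36 ± 0.21 for PI minus CI, −0.023 ± 0.21 for PI minus PC and 0.078 ± 0.21 for CI minus CC. Its p for PI minus CI was 0.113 and for PC minus CC 0.0463 before adjustment (limma). POLE, the catalytic subunit that copies the leading strand, came next in PI against CI. POLE had 1269.99, 1113, 1516, 1529.9 and 1064 normalized counts in PI1 to PI5, and 1338, 1402, 1416, 1416 and 935 in PC1 to PC5. POLE levels were 1015, 895, 1351, 1116 and 1099 in CI1 to CI5, and 1013, 968, 990.4, 1278 and 980.4 in CC1 to CC5. CI3, CI4 and CI5 lay within the PI range, and PC5 lay below all 5 CC libraries while PC1 to PC4 lay above them. POLE differed by 0.24 ± 0.15 for PI minus CI and 0.31 ± 0.15 for PC minus CC.

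POLE2, the second subunit of that polymerase, was highest in PC4 and CC4. POLE2 had 25.8, 28.2, 39.9, 36.9 and 23.6 normalized counts in PI1 to PI5, and 31.2, 40.5, 32.3, 46.2 and 23.3 in PC1 to PC5. POLE2 levels were 27.04, 19.1, 28.8, 20.8 and 28.9 in CI1 to CI5, and 19.8, 20.1, 18.2, 43.4 and 21.8 in CC1 to CC5. PC minus CC was 0.48 ± 0.25, and CC4 lay among the highest PC values. POLD2, a subunit of the lagging-strand polymerase delta, was not highest in PC4. POLD2 had 206, 312, 397, 309 and 348 normalized counts in PI1 to PI5, and 227, 416, 452, 340.2 and 387 in PC1 to PC5. POLD2 levels were 392, 463, 367, 422 and 290.4 in CI1 to CI5, and 359.7, 613, 454, 219 and 271 in CC1 to CC5. CC2 was the highest library and PI1 the lowest, and the differences were −0.017 ± 0.24 for PC minus CC, −0.31 ± 0.24 for PI minus CI, −0.20 ± 0.24 for PI minus PC and 0.091 ± 0.24 for CI minus CC. For PC minus CC, POLA1 and POLA2, of the priming polymerase alpha, differed by 0.035 ± 0.14 and 0.28 ± 0.26. POLD1 and POLD3, of polymerase delta, differed by 0.30 ± 0.19 and 0.24 ± 0.16, and the regulatory primase subunit PRIM2 by 0.013 ± 0.20.

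PCNA, the sliding clamp that tethers the polymerases, was higher in PC than in CC, while the 5 subunits of its loader were mixed, so that 3 of 6 genes in this role were higher and the median was 0.075. PCNA had 115, 192, 244, 235 and 96.9 normalized counts in PI1 to PI5, and 128, 226, 216, 438 and 224 in PC1 to PC5. PCNA levels were 158, 228, 81.04, 183 and 192 in CI1 to CI5, and 133, 226, 183, 117 and 197 in CC1 to CC5. PC4 was the highest library and CI3 the lowest, and PC2, PC3 and PC5 were close to CC2. PCNA differed by 0.45 ± 0.32 for PC minus CC, 0.049 ± 0.32 for PI minus CI, −0.46 ± 0.32 for PI minus PC and −0.059 ± 0.32 for CI minus CC, and by 0.22 ± 0.31 for PC minus CC without PC4. RFC1, the large subunit of the clamp loader, varied least of the 44 genes. RFC1 had 422, 445, 356, 377 and 415 normalized counts in PI1 to PI5, and 465, 421, 404, 413 and 462 in PC1 to PC5. RFC1 levels were 532, 498, 387, 365 and 506 in CI1 to CI5, and 461, 398, 411, 491 and 438 in CC1 to CC5. All 4 groups overlapped, and PC4 lay inside the span of the other PC libraries. RFC1 differed by −0.020 ± 0.12 for PC minus CC, −0.17 ± 0.12 for PI minus CI, −0.10 ± 0.12 for PI minus PC and 0.045 ± 0.12 for CI minus CC. All 6 genes of clamp and loader were lower in PI than in PC, with a median of −0.18. Among the small loader subunits, RFC2 differed for PC minus CC by −0.0053 ± 0.22, RFC3 by 0.16 ± 0.27, RFC4 by 0.24 ± 0.35 and RFC5 by −0.18 ± 0.30.

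The 3 subunits of RPA, which coats single-stranded DNA in replication and repair, were all lower in PI than in PC, with a median of −0.32, and all 3 were higher in PC than in CC, with a median of 0.14. RPA2, the middle subunit, had the smallest p of the 44 in PI against PC. RPA2 had 63.3, 92.4, 134, 72.1 and 77.96 normalized counts in PI1 to PI5, and 85.05, 128, 141, 143 and 139.7 in PC1 to PC5. RPA2 levels were 56.97, 183, 79.2, 144 and 80.4 in CI1 to CI5, and 94.9, 143, 129, 125 and 93.1 in CC1 to CC5. PI3 lay among the PC values, the other 4 PI libraries lay below PC2 to PC5, and PC1 lay among the PI values. RPA2 differed by −0.54 ± 0.27 for PI minus PC (limma, unadjusted p = 0.0552, adjusted p = 0.999), and without PC4 by −0.50 ± 0.29. RPA1 had 232, 480.3, 359.8, 364 and 242 normalized counts in PI1 to PI5, and 230.4, 478, 358, 640.04 and 423 in PC1 to PC5. RPA1 levels were 323, 468, 195, 497 and 276 in CI1 to CI5, and 358, 533, 421, 224 and 292 in CC1 to CC5. RPA1, the DNA-binding subunit, was highest in PC4 and lowest in CI3, and its groups overlapped throughout. RPA1 differed by 0.20 ± 0.29 for PC minus CC, −0.039 ± 0.29 for PI minus CI, −0.32 ± 0.29 for PI minus PC and −0.075 ± 0.29 for CI minus CC. RPA3, the smallest subunit, differed by 0.14 ± 0.32 for PC minus CC and −0.31 ± 0.32 for PI minus PC.

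FEN1, the flap nuclease that trims the short fragments of the lagging strand, and LIG1, the ligase that seals them, were both higher in PC than in CC. FEN1 had 44.5, 18.5, 44.1, 90.6 and 29.5 normalized counts in PI1 to PI5, and 20.5, 48.1, 44.8, 132 and 42.1 in PC1 to PC5. FEN1 levels were 45.4, 48.9, 30.6, 26.4 and 47.1 in CI1 to CI5, and 28.99, 42.1, 36.5, 10.02 and 41.4 in CC1 to CC5. PC4 and PI4 were highest and CC4, with 6 reads, lowest, and the PC libraries other than PC4 lay within or near the CC range. FEN1 differed by 0.68 ± 0.43 for PC minus CC, or 0.33 ± 0.40 without PC4. LIG1 had 452 normalized counts in PC4, and between 180.4 and 386 in the other 19 libraries. LIG1 differed by 0.26 ± 0.20 for PC minus CC.

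Nucleotide supply held the widest-ranging gene. RRM2, the small subunit of ribonucleotide reductase, which is made in S phase, spanned 50.6-fold over the 20 libraries. RRM2 had 67.95, 48.6, 163, 268 and 33.1 normalized counts in PI1 to PI5, and 66.7, 82.95, 159, 399.8 and 55.4 in PC1 to PC5. RRM2 levels were 71.5, 86.4, 86.4, 36.8 and 111 in CI1 to CI5, and 7.91, 53.7, 72.9, 46.8 and 116 in CC1 to CC5. PC4, PI4, PI3 and PC3 were highest and CC1, with 6 reads, lowest, and 3 PC libraries (PC1, PC2, PC5) overlapped CC. The PC minus CC difference of 1.27 ± 0.62 was 0.83 ± 0.60 without PC4, 0.73 ± 0.57 without CC1 and 0.29 ± 0.52 without both. TK1, the cytosolic thymidine kinase of dividing cells, had the same 4 libraries among its 5 highest. TK1 had 77.3, 34.03, 133, 193 and 59.1 normalized counts in PI1 to PI5, and 61.4, 60.3, 138, 219.8 and 33.3 in PC1 to PC5. TK1 levels were 40.6, 46.5, 140.5, 28.001 and 113 in CI1 to CI5, and 28.99, 32.3, 82.5, 51.8 and 64.4 in CC1 to CC5. CI3 was the other, and the same 3 PC libraries overlapped CC. TK1 differed by 0.74 ± 0.52 for PC minus CC, 0.43 ± 0.52 for PI minus CI, 0.016 ± 0.52 for PI minus PC and 0.33 ± 0.52 for CI minus CC. Its PC minus CC difference was 0.40 ± 0.51 without PC4, 0.57 ± 0.55 without CC1 and 0.23 ± 0.54 without both. RRM1, the large reductase subunit, differed by 0.19 ± 0.28 for PC minus CC and −0.41 ± 0.28 for PI minus PC.

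CHAF1A and CHAF1B, the CAF-1 subunits that place histones on new DNA, differed by 0.43 ± 0.32 and 0.16 ± 0.25 for PC minus CC. CHAF1B had 56.2, 48.6, 54.3, 93.9 and 42.5 normalized counts in PI1 to PI5, and 59.2, 42.4, 52.04, 97.6 and 47.7 in PC1 to PC5. CHAF1B levels were 70.5, 59.02, 52.2, 37.6 and 91.1 in CI1 to CI5, and 50.1, 49.4, 52.8, 46.8 and 56.3 in CC1 to CC5. PC4, PI4 and CI5 were highest, and the CC libraries were the tightest group, between 46.8 and 56.3. CHAF1B differed by −0.063 ± 0.25 for PI minus CI. CHAF1A had 163 normalized counts in PI4 and 164 in PC4, and between 37.8 and 114 in the other 18 libraries.

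The size of the contralateral median depended on PC4 more than on any other library left out, while most genes stayed higher in PC. PC4 and CC1 were picked as a high PC and a low CC library in the replication or mitotic genes. A smaller difference without both follows in part from that choice. Without PC4, 31 of 44 genes were higher in PC than in CC and their median was 0.083, where 7570 of all 14666 features were higher. At an unadjusted p under 0.05 limma then had 0 of the 44, where 182 of all 14666 features were higher and 173 lower. Without CC1 the count of genes higher was 33 and the median 0.24. At that level 2 of them, ORC1 and CDT1, were higher, as were 265 of all 14661 features. Without both libraries 29 were higher with a median of 0.062, and 0 reached that level, against 153 of all 14631 features higher. Leaving out any other library in turn gave medians from 0.20, without CC4, to 0.36, without PC5. CDT1, RRM2 and ORC1 had the largest differences without PC4. Without both libraries CDT1 was at 0.85 ± 0.55, ORC1 at 0.54 ± 0.37, MCM3 at 0.37 ± 0.38, PRIM1 at 0.31 ± 0.24 and PCNA at 0.14 ± 0.33. POLA1, CHAF1B and RFC3 were higher in PC with PC4 and lower without it, at 0.035 ± 0.14, 0.16 ± 0.25 and 0.16 ± 0.27 with it, and −0.045 ± 0.15, −0.027 ± 0.24 and −0.0014 ± 0.28 without it. GINS3, a gene with few reads, was lower in both fits.

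**Figure D3:**
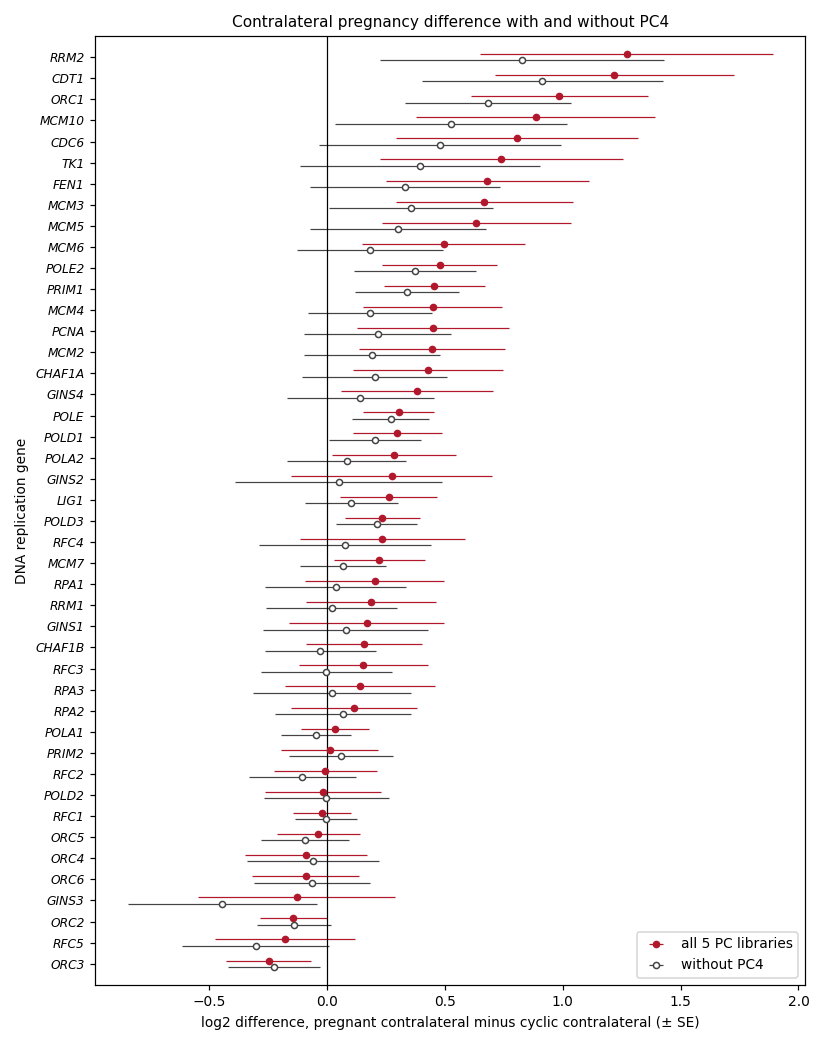
Log2 difference of PC minus CC for each of the 44 replication genes with its standard error, with all 5 PC libraries (filled red points) and without PC4 (open points). Most points move toward 0 without PC4, the median being 0.25 with it and 0.083 without it, while CDT1, RRM2 and ORC1 remain at the right.

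On the ovulation side, the side the embryo travels through, the counts were balanced and changed with single libraries left out. Of the 44 genes, 23 were higher in PI than in CI, against 11 without PI4, 15 without PI3 and 15 without CI3. In CPM without TMM scaling, 15 were higher and 29 lower. Medians were −0.097, −0.064 and −0.10 without these libraries. The 3 smallest p values belonged to PRIM1, POLE and RFC1, described above, and RFC1 was lower at −0.17 ± 0.12. The single-strand binding genes were lower in PI in 3 of 3, with a median of −0.16, and the origin recognition genes in 5 of 6, with a median of −0.049. Both Okazaki fragment genes had the PI mean above that of CI, at a median of 0.034, and polymerase and primase genes in 7 of 9.

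Between the oviducts of pregnant mares, the count of lower genes in PI changed most without PC4. Of 44 genes, 8 were higher in PI than in PC with a median of −0.18, and 19 were higher with a median of −0.017 without PC4. The count was 14 or 15 without PI1, PI2, PI5 or PC3, and the medians were −0.077 without PI5, −0.10 without PI1 and −0.30 without PI4. Libraries of the same number in PI and PC deviated together over all features, so they were also set side by side. The median over the 44 genes of the log2 difference PI minus PC was −0.060 for number 1, −0.29 for number 2, 0.0026 for number 3, −0.42 for number 4 and −0.27 for number 5. In number 4, 40 of 44 genes were lower in PI4 than in PC4, although PI4 was itself high among PI libraries. In the pairs without PC4, 28 were lower in PI for number 1, 34 for number 2, 22 for number 3 and 30 for number 5. With status and number as a block, 0 of 44 passed in PI against PC, and MCM3, RPA2 and CDC6, all lower in PI, had an unadjusted p under 0.05 by limma, which 0 had without the block. That fit had 1.83% of all features lower at this level, and a fit with an estimated correlation in place of the fixed block had the same 3 genes and 1.81%.

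In cyclic mares 32 of 44 genes were higher in CI than in CC, with a median of 0.076, and 24 were higher and 20 lower in CPM without TMM scaling. ORC1, CDC6 and GINS4 had the smallest p values there, with differences of 0.70 ± 0.38, 0.60 ± 0.51 and 0.37 ± 0.32. All 6 MCM2-7 genes were higher, by 0.029 to 0.21, and 3 of 3 RPA genes were lower, with a median of −0.075. The median was 0.023 without CI5 and 0.13 without CI3 or CC5. For the interaction, 37 of 44 genes were lower and the median was −0.30 (all features −0.038). The interaction was −0.11 with 12 genes higher without PC4, against 7 higher with it, and 4 were higher without PC2. CDC6, ORC1 and MCM3 had the smallest interaction p values, at −1.38 ± 0.73, −0.86 ± 0.53 and −0.73 ± 0.53, none of which passed.

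The 44 genes fell along a range of variation over the 20 libraries. The SD of the log2 level ran from 0.16 for RFC1 to 1.11 for RRM2, with a median of 0.46. RFC1, ORC2, POLA1, POLD3, ORC5 and POLE varied least. RRM2, CDT1, TK1, CDC6, MCM10 and FEN1 varied most, and each of these was highest in PC4, as were 30 of all 44 genes. The SD includes PC4, so a high value there widens it by construction. Genes with few reads, such as MCM10 and CDC6, also carry more counting error, whose part in the spread was not tested.

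Other genes of the pathway were taken from lists. Of 25 further replication factors that passed the filter, 0 passed the test in any comparison, 18 were higher in PC than in CC and their median was 0.23. Without PC4 17 were higher with a median of 0.11, and without both PC4 and CC1 17 with a median of 0.046. The fork protection factors TIMELESS and CLSPN differed by 0.68 ± 0.28 and 1.09 ± 0.52, the clamp loader subunit CHTF18 by 0.64 ± 0.32 and the small polymerase epsilon subunit POLE4 by −0.50 ± 0.31. In PI against CI, 11 of the 25 were higher, and RNASEH2B, a subunit of the enzyme that removes RNA from DNA, differed by −0.55 ± 0.18, the repair helicase MCM8 by 0.44 ± 0.19 and POLE4 by −0.66 ± 0.31. Its mean level was 58.6 ± 13.9 normalized counts in the PI libraries, against 86.5 ± 16.995 in the CI libraries (RNASEH2B, SD, n = 5). Of 14 further genes of nucleotide supply, 6 were higher in PC than in CC, with a median of −0.094.

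Of 24 genes of the E2F, Rb and S phase kinase list, 18 were higher in PC than in CC, with a median of 0.22, and 0 passed. Without PC4 16 were higher with a median of 0.12, without CC1 18 with 0.13, and without both 15 with 0.044. At an unadjusted p under 0.05 limma had 4 of the 24 higher and 1 lower with all libraries. Of all features 2.75% were higher and 1.8% lower. In each of these 3 fits it had 0 of the 24. Of all features, 182 of 14666 were higher at that level without PC4, 265 of 14661 without CC1 and 153 of 14631 without both. E2F1, an activator of S phase genes, had 42.2, 25.3, 61.1, 114 and 22.4 normalized counts in PI1 to PI5, and 51.7, 58.4, 80.1, 128 and 29.9 in PC1 to PC5. E2F1 levels were 19.3, 35.8, 21.6, 23.2 and 87.9 in CI1 to CI5, and 5.27, 20.1, 45.1, 28.4 and 45.97 in CC1 to CC5. PC4 and PI4 were highest and CC1, with 4 reads, lowest, and E2F1 differed by 1.28 ± 0.51 for PC minus CC. MYBL2, a factor of late S phase genes, differed by 1.35 ± 0.57, FBXO5, an inhibitor of the anaphase-promoting complex, by 0.91 ± 0.39, and the kinase CDK6 by −0.32 ± 0.15. The S phase cyclin CCNE2 differed by 0.62 ± 0.38, the licensing inhibitor GMNN by −0.16 ± 0.18 and the cell cycle inhibitor CDKN1A by 0.24 ± 0.25. In chromatin duplication all 10 genes had a higher PC mean, the median being 0.099, but 7 without PC4 and 6, with a median of 0.031, without both PC4 and CC1. It was led by UHRF1, which guides DNA methylation to new strands, at 0.99 ± 0.39 and by the methyltransferase DNMT1 at 0.42 ± 0.18. Of 6 cell cycle inhibitors 3 were higher, with a median of 0.091, and BTG1, which restrains growth, was at −0.59 ± 0.22.

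Mitotic genes, which act after replication, deviated more than the replication genes in the same libraries. All 27 were higher in PC than in CC, with a median of 1.05, or 0.63 without PC4, 0.65 without CC1 and 0.25 without both, and 0 passed. Their median deviation was 1.99 in PC4, 1.51 in PI4, 1.10 in PI3, 0.89 in PC3, −1.12 in PI5 and −1.94 in CC1. TOP2A, a topoisomerase of dividing cells, had 1728 normalized counts in PC4, 1003 in PI4 and 64.6 in CC1. It differed by 1.24 ± 0.60 for PC minus CC. In CC1 the replication genes had a median of −0.30, so that this library was lower in mitotic than in replication genes.

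Pan-leukocyte, T and NK cell and myeloid markers, of cells some of which divide, were highest in PC4. The pan-leukocyte list, with 11 of 12 genes kept, had a median deviation of 1.40 in PC4, 0.76 in PI4 and 1.03 in CI1. The replication genes stood at 0.77, 0.39 and −0.020 in the same libraries. All 11 pan-leukocyte markers were higher in PC than in CC, with a median of 0.51, or 9 with 0.22 without PC4 and 9 with 0.19 without both PC4 and CC1. Their summed level ran from 683 to 1879 normalized counts in PI, 1017 to 2893 in PC, 705 to 2301 in CI and 726 to 1213 in CC. PTPRC, the pan-leukocyte phosphatase CD45, was 704 in PC4, and between 101 and 498 in the other 19 libraries. T and NK cell markers, with 20 of 23 kept, had a median deviation of 1.60 in PC4. Of these, 19 were higher in PC than in CC with a median of 0.92, or 0.61 without PC4. In PI against CI 19 of 20 were also higher, with a median of 0.69, as were 9 of 11 pan-leukocyte and 7 of 16 myeloid markers. At an unadjusted p under 0.05 limma had 10 of the 20 T and NK markers higher in PC against CC, and 3 in PI against CI. Of all 14692 features, 404 and 220 were higher at that level. The myeloid markers, with 16 of 20 kept, had a median deviation of 1.22 in PC4. Summed T and NK levels were 301 to 820 in PI, 446 to 1521 in PC, 257 to 955 in CI and 249 to 531 in CC, and myeloid sums 961 to 3397, 1370 to 4850, 1118 to 2945 and 1202 to 2700 in the same groups. B and plasma cell markers, 7 of 14 kept, did not share this as a list: their median deviation was −0.030 in PC4 and highest in CI1 at 0.66. In PC against CC, 6 of 7 were lower, with a median of −0.13. Single genes of the list differed in PC4: MZB1 was listed at 0, while CD22 and CD79B had their highest values of 20 libraries, 14.0 and 1.17. The summed level of the 13 found in the table was 1043 to 2184 in PI, 1178 to 2564 in PC, 1567 to 3094 in CI and 1707 to 4506 in CC. XBP1 alone ran from 865 in PI1 to 4328 in CC2, while MS4A1, PAX5 and CD79B had a median of 0 over the 20 libraries. Epithelial markers, 8 of 12 kept, were at 0.48 in PC4, and regulators of multiciliogenesis, 16 of 18 kept, at 0.0051. The part of leukocytes in the replication genes was not tested.

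Markers of the tissue's other cells were mixed between pregnant and cyclic mares, with 0 passing by limma. Smooth muscle markers were higher for 4 of 7 in PC than in CC and for 4 of 7 in PI than in CI. Endothelial markers were higher for 5 of 9 and 6 of 9, and mesothelial and ovarian markers for 2 of 6 and 5 of 6. Stromal, multiciliated and secretory cell markers each leaned the same way on both sides, as the T and NK cell markers did. Secretory cell markers, 8 of 10 kept, were higher for 7 in PC than in CC, with a median of 0.37, and for 6 in PI than in CI, with a median of 0.048. The summed level of the secretory list was 14436 to 31012 normalized counts in PI, 16513 to 35826 in PC, 16796 to 21784 in CI and 10947 to 25321 in CC. Stromal fibroblast markers, 18 of 18 kept, were lower for 17 in PC than in CC, with a median of −0.42, and for 17 in PI than in CI, with a median of −0.50. Their summed level was 2835 to 10028 normalized counts in PI, 4214 to 9125 in PC, 5397 to 8053 in CI and 3647 to 13465 in CC. Multiciliated cell markers, 19 of 20 kept, were higher for 19 in PC than in CC, with a median of 0.29, and for 18 in PI than in CI, with a median of 0.20. Their summed level was 79632 to 106935 in PI, 82232 to 104765 in PC, 60071 to 86731 in CI and 62344 to 95070 in CC. The part of these cells in the replication genes was not tested.

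Embryonic cells, which divide fast, were sought with 22 markers of early embryo and oocyte, of which 15 were listed and 4 passed the filter. LIN28B, DPPA4 and ZP4 were listed at 0 in all 20 libraries, and CDX2, a factor of the embryo's outer layer, was above 0 in 1 library, PI2, with 1 read. The 4 kept were GATA3, GATA6 and ELF5, factors also made in adult tissues, and GDF9, an oocyte growth factor. The summed level of the 15 listed was 121 to 490 normalized counts in PI, 118 to 416 in PC, 62.4 to 210 in CI and 64.1 to 286 in CC. GATA6 alone was between 42.4 and 457. Of the 4 kept, 4 were higher in PC than in CC and 3 in PI than in CI.

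**Figure D4:**
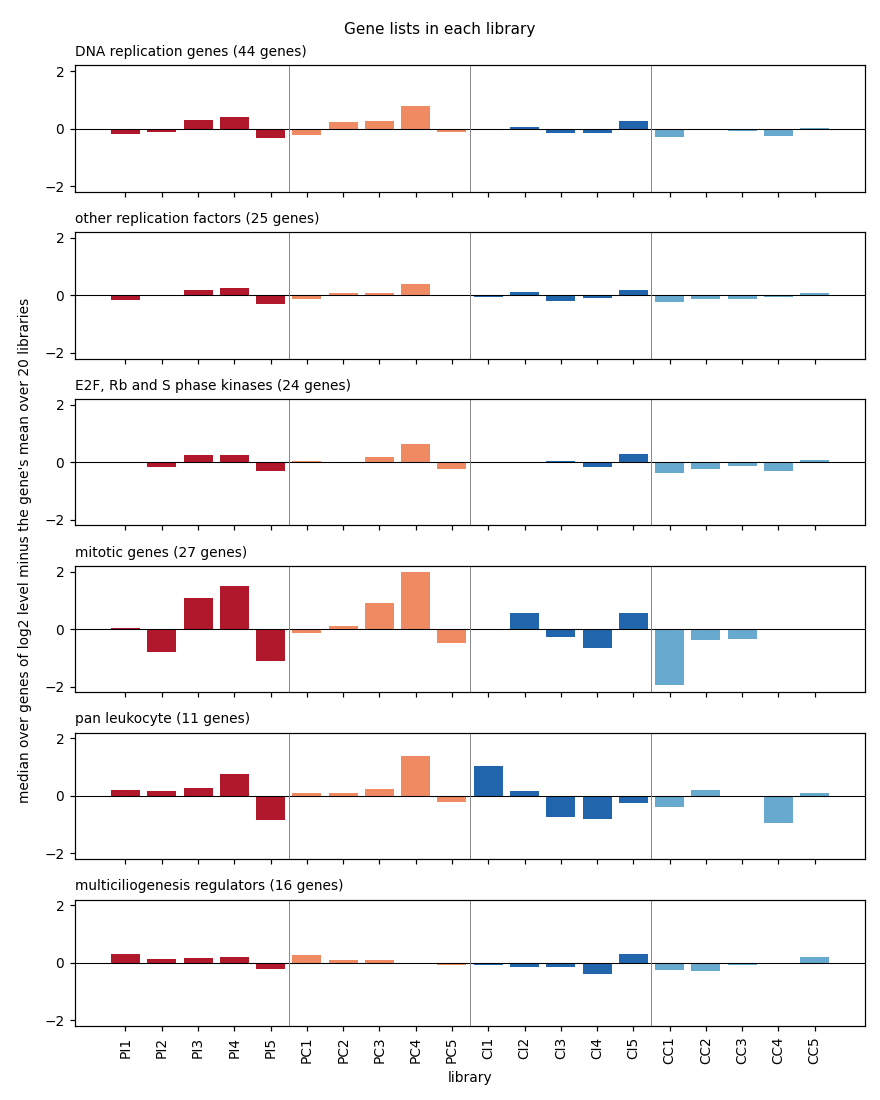
Bars give, for each of the 20 libraries, the median over a list's genes of the log2 level minus the gene's mean over the 20 libraries, for 6 lists. PC4 is the tallest bar for the replication genes at 0.77, the mitotic genes at 1.99 and the leukocyte markers at 1.40, CC1 is lowest for the mitotic genes at −1.94, and the multiciliogenesis regulators are at 0.0051 in PC4.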

How the data were processed

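RNA of oviduct epithelial cells was sequenced in 20 libraries, 5 per group. Per the labels' protocols libraries came from a stranded total RNA kit with ribosomal RNA depletion, while the molecule label names polyA RNA. The submitters' processing notes name CASAVA 1.8, and none of the sources used here gives the aligner, counter or genome build. The deposited signal is a table of TMM-normalized counts per feature, per the file headers. Because the values are whole multiples of 1 read per library (100% within a tolerance of 0.01 reads), reads were recovered for count tests.

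The 46 replication genes and all gene lists were chosen with earlier results of these data known. Of 26740 features, 20350 had reads and 14692 had over 1 CPM in at least 5 libraries. limma 3.58.1 in R 4.3.3 was fitted on log2 of the TMM-normalized count plus 3.03, which equals 0.5 CPM. The model had 1 mean per group over all 20 libraries, with 4 contrasts and an interaction. edgeR 4.0.16 (quasi-likelihood) and DESeq2 1.42.0 were run on the recovered reads. Alternatives changed the scaling, pseudocount, filter, library weights, block or libraries left out. Genes with values in every library were 17 chosen by role and the 3 smallest p values among the replication genes in each comparison. From each other list at most 4 genes per comparison were named by smallest p, with TOP2A, CDKN1A, GMNN, E2F1 and CCNE2 whatever their p. Lists were searched by symbol, and genes not found under theirs, such as MKI67 and TFDP1, were not analysed here. Levels are not compared between genes, since no lengths were used. Promoter and protein sequences were not used here.

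Same-numbered PI and PC libraries deviated together from their group means over all features (r from 0.53 to 0.70, each the best match of its pair), so their numbers were taken as pairs from the data. The labels do not state this. Across status, PI2 with CI2 had r of 0.59 and PC2 with CC2 0.49, both also best matches. The remaining same-numbered libraries of different status had r from −0.40 to 0.12 and were not best matches. A shared number can thus go with a high r between a pregnant and a cyclic library. Depth, from 2795168 to 10126484 reads per library, limits genes with few reads.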

Additional observations from a re-analysis of the deposited data

Results flagged for a closer look

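Of 180 groups of 5 libraries examined, 14 (7.78%) held 1 library whose gap to the nearest other passed Dixon's critical value, a level that chance passes in about 5% of groups. PC4 and CC4 gave 4 each, PI4 gave 2, and PI2, PC1, PC5 and CI5 gave 1 each.

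In PC4, 4 replication genes stood far above the other PC libraries. They were the helicase subunits MCM5, at 568 normalized counts where the next PC library had 250, and MCM6, at 829 where the next had 367. The others were the GINS complex gene GINS3, at 36.8 where the next had 14.4, and the flap nuclease FEN1, at 132 where the next had 48.1.

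CC4 stood apart in both directions. The helicase subunit MCM2 was low there, at 147 where the next CC library had 256. The origin recognition subunit ORC6 was high at 50.1 where the next had 36.0, and so were the polymerase epsilon genes POLE, at 1278 where the next had 1013, and POLE2, at 43.4 where the next had 21.8.

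Among pregnant mares the chromatin assembly gene CHAF1B was high in PI4, at 93.9 where the next PI library had 56.2, and ORC4 was low in PI4, at 247 where the next had 314. The polymerase delta gene POLD3 was low in PI2, at 275 where the next had 337. RPA2, a single-strand binding subunit, was low in PC1, at 85.0 where the next PC library had 128, and POLE was low in PC5, at 935 where the next had 1338. In cyclic mares GINS2 was high in CI5, at 16.1 where the next CI library had 7.15.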

How the results depend on the processing

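No comparison called a replication gene under any of the alternatives run, and the medians of the 44 genes kept their sign under each of these in every comparison but PI against CI. The count of genes higher moved by over 1.5 times in 3 comparisons. For PI against CI (23 higher) it was 15 in CPM without TMM, 12 without all of PI1, PI4 and CI3, and 11 to 30 with each library left out in turn. For PI against PC (8 higher) it was 13 with library weights, 19 without both PC4 and CC1, and 6 to 19 with each library left out. For the interaction (7 higher) it was 14 without both PC4 and CC1, and 4 to 12 with each library left out. Medians with each library left out ran from −0.10 to 0.077 in PI against CI, from 0.083 to 0.36 in PC against CC, from −0.30 to −0.017 in PI against PC, from 0.023 to 0.13 in CI against CC and from −0.43 to −0.11 in the interaction. The cause of these moves was not tested beyond the library left out. With status and number as a replicate block 0 genes passed in any comparison, and the median, −0.18 in PI against PC, cannot change by construction. At an unadjusted p under 0.05 that paired fit had 3 genes lower in PI against PC, 3 higher in CI against CC (ORC1, CHAF1A and CDC6, where 1.03% of all features were higher) and 5 lower in the interaction (CDC6, RFC3, MCM3, RRM2 and CDT1, where 1.19% were lower), while the fit without the block had 0. With an estimated correlation in place of the fixed block, ORC1 alone was left in CI against CC (0.803% of all features higher) and CDC6 alone in the interaction (0.858% lower). CI and CC libraries of the same number had correlations of 0.29, 0.68, 0.023, −0.041 and 0.62, and 3 of 5 were each other's best match, a hint from the data for those 3 libraries of each side. By the rule that every pair exceed 0.1 the cyclic numbers were not taken as pairs, so the blocked values that use CI and CC rest on numbers that may not pair. A search of promoters for E2F words was not run. Depth limits GINS2, with 1 to 36 reads per library, and MCM10, with 2 reads in CC1.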
